A study of Mus musculus with 10 samples.

Results

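The 10 genes described here mark fat cells, and their values were read in the renal cortex of mice. They were Adipoq, Fabp4, Pparg, Cidec and Car3, which fat cells of any type express, Lep and Retn, which mark white fat, and Ucp1, Cidea and Elovl3, which mark brown fat. The genes were chosen because their values were known to be high in some of the arrays, so their levels in single arrays are given as a description, with no test. All 10 were among the 18193 genes of the table, each read from its probe set of highest mean, and no level filter was used. In the aliskiren group 5 FVB/N mice aged 20 weeks received aliskiren, a renin inhibitor, at 50 mg/kg for 6 weeks. In the losartan group 5 mice of the same strain and age received losartan, which blocks the type 1 angiotensin II receptor, at 500 mg/l for 6 weeks. Every mouse of both groups had lost renal tissue by partial ablation 6 weeks before the drug was started and a whole kidney 4 weeks before it, so each sample is a remnant kidney, and mice with intact kidneys or without a drug were not analysed here. Each mouse gave 1 array. The values are RMA log2 expression values as the authors deposited them, on which a step of 1 is a doubling, and folds are ratios of such values rather than of RNA amounts.

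White fat stores triglyceride in large droplets and releases hormones such as leptin and resistin. Brown fat burns lipid for heat through the mitochondrial uncoupling protein that Ucp1 encodes. The kidney is embedded in perirenal fat, which in mice holds both white and brown adipocytes and lies against the capsule and hilum. Some of the genes are not limited to fat cells: Fabp4 is also expressed in endothelial cells and macrophages, Pparg in the collecting duct, and Car3 in skeletal muscle and liver.

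The regions just upstream of 4 of these genes are shown as examples: Ucp1 of the brown-type, Adipoq of the general, and Retn and Lep of the white-type genes. RefSeq promoter sequences (GRCm38.p6) were read for 6 of the 10 genes. The 250 bases before the annotated start are printed for Ucp1, Adipoq, Lep and Retn, with matches to the searched motifs in capitals.
Ucp1, chr8:83290098-83290347, plus strand: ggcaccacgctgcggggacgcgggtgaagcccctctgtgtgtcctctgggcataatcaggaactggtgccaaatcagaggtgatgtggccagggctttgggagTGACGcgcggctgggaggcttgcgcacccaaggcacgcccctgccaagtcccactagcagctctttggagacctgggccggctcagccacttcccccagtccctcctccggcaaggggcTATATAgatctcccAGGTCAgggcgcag
Adipoq, chr16:23146286-23146535, plus strand: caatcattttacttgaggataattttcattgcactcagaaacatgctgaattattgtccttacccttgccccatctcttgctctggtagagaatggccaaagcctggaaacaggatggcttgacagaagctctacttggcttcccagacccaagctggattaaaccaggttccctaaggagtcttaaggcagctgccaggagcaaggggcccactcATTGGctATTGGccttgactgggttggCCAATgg
Lep, chr6:29059971-29060220, plus strand: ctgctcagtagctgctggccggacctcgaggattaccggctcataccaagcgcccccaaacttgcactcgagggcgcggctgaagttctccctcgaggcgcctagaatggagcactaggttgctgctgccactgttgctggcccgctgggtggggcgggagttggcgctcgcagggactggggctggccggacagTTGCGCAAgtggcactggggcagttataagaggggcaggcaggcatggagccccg
Retn, chr8:3655520-3655769, plus strand: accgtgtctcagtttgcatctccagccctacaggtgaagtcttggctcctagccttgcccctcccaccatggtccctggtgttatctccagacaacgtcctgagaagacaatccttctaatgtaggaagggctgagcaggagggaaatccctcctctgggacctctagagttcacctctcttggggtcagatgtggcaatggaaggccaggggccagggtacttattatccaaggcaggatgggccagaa

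The motifs were searched on both strands as exact letters, and matches to different motifs did not overlap in the printed sequences. Ucp1 held the half-site TGACG of the cAMP response element, which 17.8% of all 32851 promoter entries held in the same window. It also held TATATA, found in 5.25% of entries, and the nuclear receptor half-site AGGTCA, found in 14.0%. Adipoq held CCAAT once and its reverse complement in 2 further places, a motif found in 33.8% of entries. Lep held TTGCGCAA, a match to the C/EBP pattern TTGCNNAA that 9.56% of entries held, from base 55 to base 48 before the start. The letters there read the same on both strands, so the match was found on each. Retn held no match to these motifs or to TATAAA, which 12.4% of entries held.

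The fat genes were high in 2 of the 10 arrays and raised in part in 1 more. Aliskiren mouse 3 had 8 of the 10 genes more than 2-fold above the median of the 10 arrays, all but Pparg and Lep, where 0.242% of all genes were. Aliskiren mouse 2 had 4 above that mark, Adipoq, Cidea, Ucp1 and Car3, where 0.0989% of all genes were. Losartan mouse 3 had all 10 above it, where 4.61% of all genes were. In the other arrays 0 of the 10 genes passed the mark. Of all genes, 0.868% passed it in aliskiren mouse 1, 0.28% in aliskiren mouse 4 and 0.022% in aliskiren mouse 5, against 0.0879% in losartan mouse 1, 0.154% in losartan mouse 2, 0.0605% in losartan mouse 4 and 0.0165% in losartan mouse 5. Since the genes were chosen on these values, nothing is read from the counts. In bulk tissue, fewer cells of a type and less RNA per cell cannot be told apart.

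**Figure D1:**
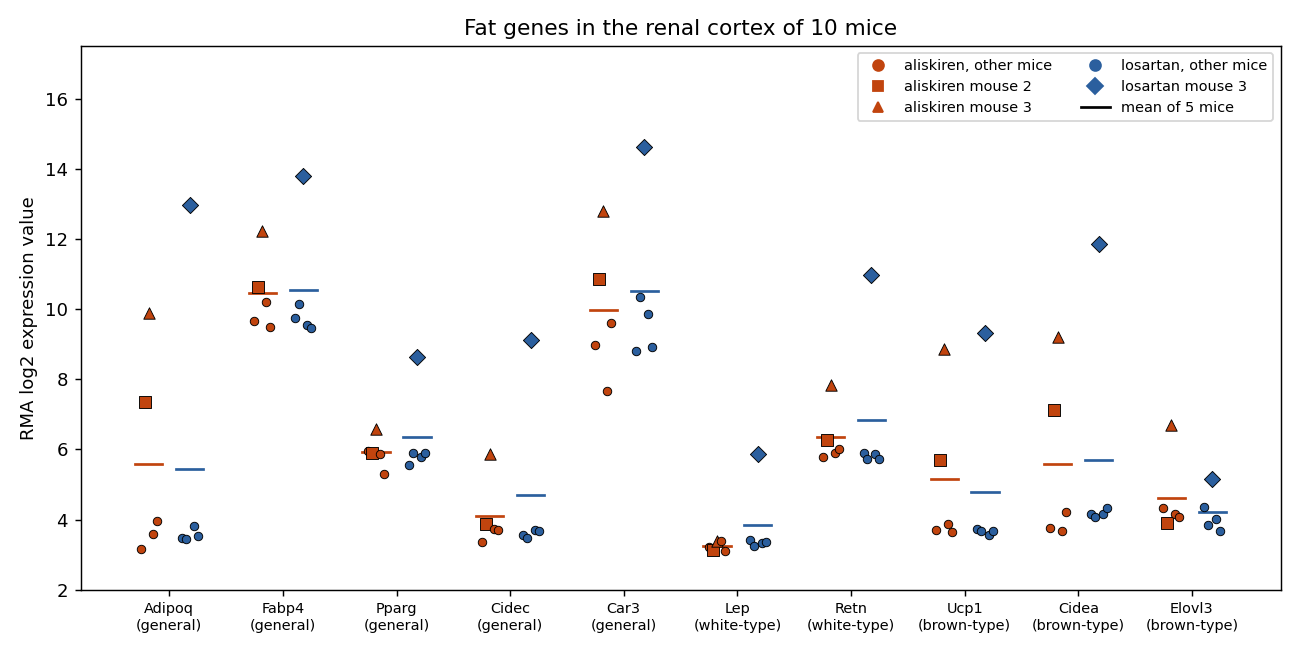
RMA log2 values (y axis) of the 10 fat genes (x axis) in each of 10 mice, aliskiren left and losartan right within each gene; horizontal lines are means of 5 mice. Losartan mouse 3 (diamond) is the highest array for 9 genes and aliskiren mouse 3 (triangle) for Elovl3, while the means of the groups lie within the spread of the mice.

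Adipoq, which encodes the fat cell hormone adiponectin, spanned the widest range of the 10 genes. It had 3.17, 7.35, 9.90, 3.59 and 3.96 in aliskiren mice 1 to 5, against 3.48, 3.43, 12.96, 3.82 and 3.53 in losartan mice 1 to 5. Losartan mouse 3, aliskiren mouse 3 and aliskiren mouse 2 stood apart, and the other 7 mice lay within 0.78 of each other. The value was above that of 91.8% of probe sets on the array in aliskiren mouse 3, 71.4% in aliskiren mouse 2 and 11.3% in aliskiren mouse 1, against 99.2% in losartan mouse 3. Adipoq had the largest excess over its median of all genes in each of these 3 arrays.

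Fabp4, the fatty acid binding protein of adipocytes, had 9.67, 10.63, 12.23, 10.21 and 9.49 in aliskiren mice, against 9.75, 10.15, 13.79, 9.54 and 9.46 in losartan mice. Here the other 7 mice were already at a high value, between 9.46 and 10.21, and aliskiren mouse 2 at 10.63 stood little above them. Car3, a carbonic anhydrase abundant in adipocytes, had 8.98, 10.86, 12.79, 7.65 and 9.59 in aliskiren mice, against 8.82, 10.35, 14.62, 9.86 and 8.93 in losartan mice. Unlike the other genes, Car3 varied widely among the 7 remaining mice, by 2.69, with aliskiren mouse 4 lowest and losartan mouse 2 highest of them.

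Cidec encodes a protein that fuses lipid droplets. It had 3.36, 3.87, 5.87, 3.74 and 3.72 in aliskiren mice, against 3.57, 3.46, 9.12, 3.72 and 3.68 in losartan mice. Losartan mouse 3 was highest, aliskiren mouse 3 second, and aliskiren mouse 2 was 0.19 above the median of the other 7 mice. Pparg, the nuclear receptor that drives fat cell formation, had 5.96, 5.90, 6.57, 5.86 and 5.29 in aliskiren mice, against 5.57, 5.90, 8.64, 5.80 and 5.90 in losartan mice. Its value in aliskiren mouse 2 lay within the range of the other 7 mice.

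Ucp1, the brown fat uncoupling protein, was almost equally high in the 2 arrays of highest fat gene values. It had 3.70, 5.69, 8.87, 3.88 and 3.64 in aliskiren mice, against 3.73, 3.67, 9.31, 3.55 and 3.66 in losartan mice. Aliskiren mouse 3 and losartan mouse 3 were high, aliskiren mouse 2 lay between them and the rest, and the other 7 mice spanned 0.33. Over the median of those 7, Ucp1 was 36.5-fold higher in aliskiren mouse 3, 4.04-fold in aliskiren mouse 2 and 49.9-fold in losartan mouse 3.

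Cidea, a lipid droplet protein that in mice is abundant in brown fat, had 3.76, 7.13, 9.21, 3.69 and 4.20 in aliskiren mice, against 4.16, 4.06, 11.84, 4.17 and 4.33 in losartan mice. The order of the 3 high arrays was the same as for Adipoq. Elovl3, which elongates very long chain fatty acids and is induced in brown fat in the cold, had 4.32, 3.90, 6.69, 4.16 and 4.08 in aliskiren mice, against 4.35, 3.85, 5.16, 4.02 and 3.68 in losartan mice. It was the one member whose highest value was in aliskiren mouse 3, and aliskiren mouse 2 lay within the range of the other 7 mice.

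Retn, which encodes resistin, had 5.78, 6.28, 7.82, 5.89 and 6.01 in aliskiren mice, against 5.91, 5.72, 10.98, 5.88 and 5.72 in losartan mice. Losartan mouse 3 was far above the rest, and aliskiren mouse 3 was second. Lep, which encodes leptin, had 3.22, 3.13, 3.38, 3.38 and 3.11 in aliskiren mice, against 3.41, 3.26, 5.87, 3.34 and 3.37 in losartan mice. Leptin was above 14.3% of probe sets in aliskiren mouse 3, within the 9.11% to 14.6% of the other arrays, and above 53.8% in losartan mouse 3, the one array where it stood out.

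**Figure D2:**
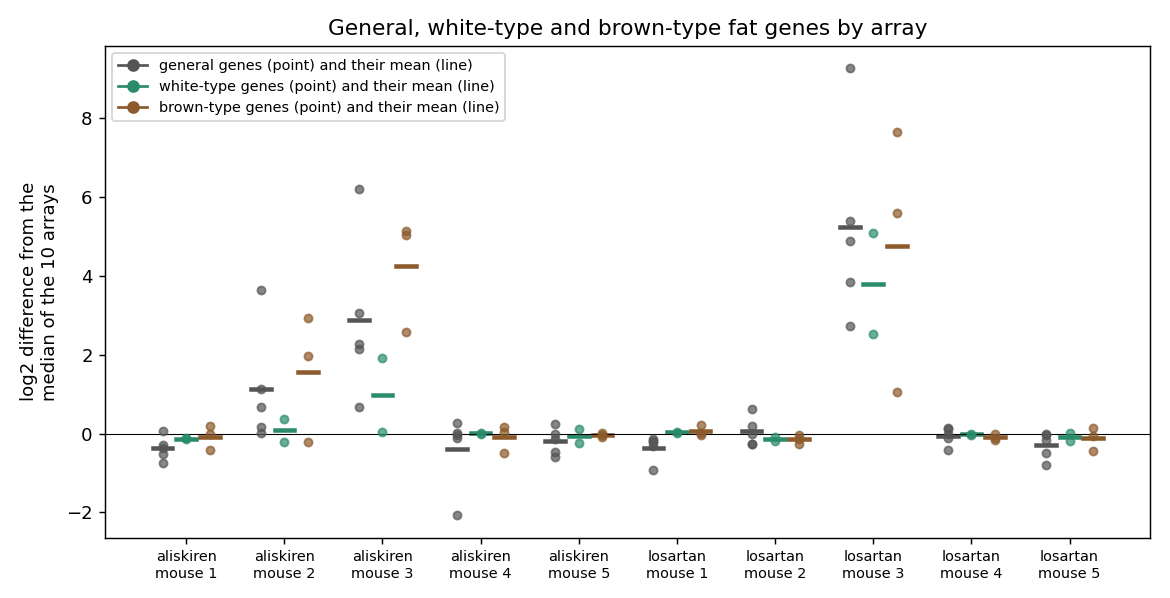
Log2 difference of each fat gene from its median over the 10 arrays (y axis) in each mouse (x axis), with the mean of the general, white-type and brown-type genes as lines. Aliskiren mouse 3 has its highest mean for brown-type genes, at 4.25, and losartan mouse 3 for general genes, at 5.23.

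The brown-type mean was the highest of the 3 classes in aliskiren mice 3 and 2, and lay between the general and white-type means in losartan mouse 3. Mean log2 differences from the median of the 10 arrays were 2.88 for general, 0.98 for white-type and 4.25 for brown-type genes in aliskiren mouse 3, against 5.23, 3.80 and 4.76 in the same order in losartan mouse 3. Brown-type minus general was therefore 1.37 in aliskiren mouse 3, 0.44 in aliskiren mouse 2 and -0.46 in losartan mouse 3, and it lay between -0.21 and 0.43 in the other 7 mice. Brown-type minus white-type was 3.27 in aliskiren mouse 3, 1.48 in aliskiren mouse 2 and 0.96 in losartan mouse 3. White-type minus general was -1.90 in aliskiren mouse 3, -1.05 in aliskiren mouse 2 and -1.43 in losartan mouse 3. Each class mean rests on 2 to 5 genes, and single arrays allow no test. The genes also started from different levels, with medians of 9.95 for Fabp4 and 9.73 for Car3, against 3.72 for Ucp1 and 4.19 for Cidea. From a higher median, the same added amount gives a smaller log2 difference. In these 3 arrays Adipoq, a general gene of low median, was further above its median than any brown-type gene. Whether the order of the class means reflects the type of fat was not tested.

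Gene by gene, aliskiren mouse 3 minus losartan mouse 3 was 1.52 for Elovl3 and -0.45 for Ucp1, and it was between -1.56 (Fabp4) and -3.25 (Cidec) for the other 8 genes. The brown-type gene Cidea, at -2.63, lay with the general and white-type genes rather than with Ucp1. On the linear scale, the excess over the median of the other 7 mice in aliskiren mouse 3 was 455% of that in losartan mouse 3 for Elovl3 and 72.7% for Ucp1. For Fabp4 it was 29.8%, for Car3 26.8%, for Cidea 15.8%, for Adipoq 11.8%, for Pparg 11%, for Retn 8.54%, for Cidec 8.43% and for Lep 0.632%. Elovl3 and Ucp1 thus had the highest shares of the 10 genes, and Lep the lowest. The share of Elovl3 is taken over a small excess, as losartan mouse 3 was 2.12-fold above the median of the other 7 mice. Lep in aliskiren mouse 3 lay 0.043 above that median on the log2 scale, at a value low on the scale. The shares of Elovl3 and Lep are therefore imprecise.

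**Figure D3:**
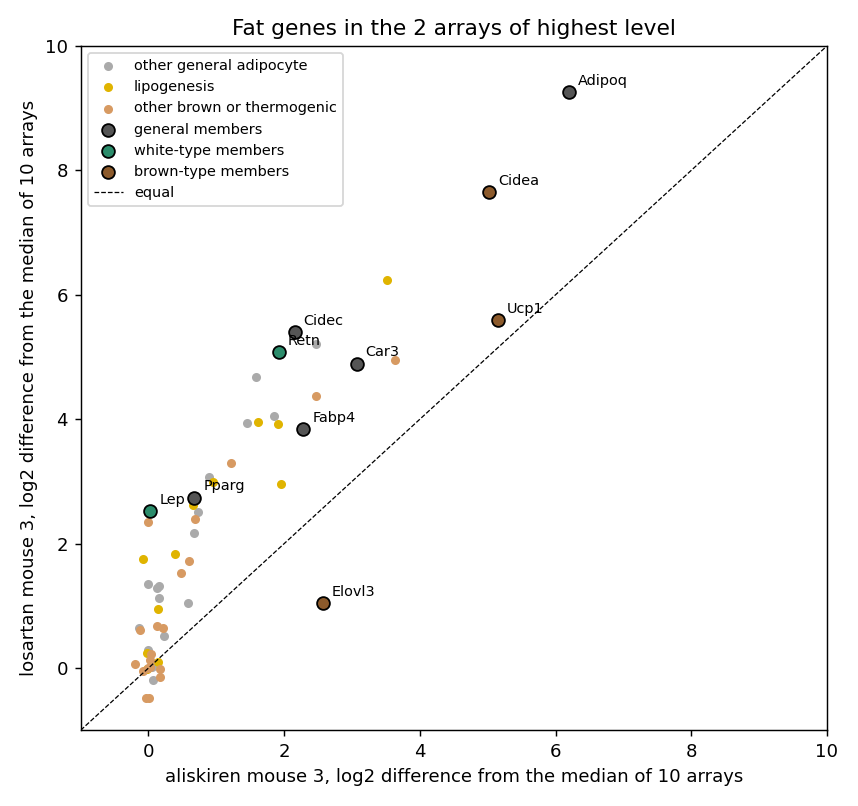
Log2 difference from the median of 10 arrays in aliskiren mouse 3 (x axis) and losartan mouse 3 (y axis) for the 10 fat genes (large, named points) and for genes of 3 further lists (small points); the dashed line marks equal values. Ucp1 lies near the line, Elovl3 below it, and the other 8 members above it.

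Fabp4 and Car3 had 4 probe sets each, and the other 8 genes had 1. The other 3 probe sets of Car3 had losartan mouse 3 highest, aliskiren mouse 3 second and aliskiren mouse 2 next, as the one used here did. Their excess over the median was 4.78, 3.04 and 5.46 in losartan mouse 3, against 4.89 for the one used here. The other 3 probe sets of Fabp4 also had losartan mouse 3 highest and aliskiren mouse 3 second. In 1 of these, aliskiren mouse 4 came next, at 6.27. The probe sets of a gene were read from the same arrays and are not independent samples.

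Further fat genes showed the same arrays, to differing degrees. Of 17 measured genes of general adipocyte function, 4 were more than 2-fold above their median in aliskiren mouse 3, with a list median of 0.23 on the log2 scale, and 12 in losartan mouse 3, with a list median of 1.33. The medians over all genes were 0.00 in aliskiren mouse 3 and -0.02 in losartan mouse 3. Mrap, an accessory protein of the corticotropin receptor that mouse adipocytes express, had 7.38 in aliskiren mouse 3 and 10.12 in losartan mouse 3, with 5.19 the highest of the other 7 mice. The adipogenin gene Adig had 6.10 and 9.20 in the same arrays, and the lipid droplet gene Plin4 had 6.31 and 8.79. Lipe, which encodes hormone-sensitive lipase, had 8.16 and 10.34. Acvr1c and the fatty acid transporter gene Cd36 differed from their medians by at most 0.19 in these arrays.

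The lipogenic genes followed, with 4 of 12 more than 2-fold up in aliskiren mouse 3 and 8 of 12 in losartan mouse 3. Thrsp, a regulator of lipogenesis, had 9.40 in aliskiren mouse 3 and 12.11 in losartan mouse 3, against a median of 5.88. The fatty acid synthase gene Fasn had 10.77 and 12.78, and the acetyl-CoA carboxylase gene Acaca had 9.96 and 12.30. Me1 and Mlxipl, which the kidney also expresses, stayed within 0.23 of their medians in both arrays.

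Among 20 other brown or thermogenic genes, 3 were more than 2-fold above their median in aliskiren mouse 3 and 7 in losartan mouse 3. Cox8b, a cytochrome oxidase subunit of brown fat and muscle, had 7.23 in aliskiren mouse 2, 9.38 in aliskiren mouse 3 and 10.71 in losartan mouse 3, where 5.86 was the highest of the other 7 mice. The amino acid transporter gene Slc36a2 had 7.82 in aliskiren mouse 3 and 9.74 in losartan mouse 3, and Otop1 had 4.08 and 6.16. Ebf2, a transcription factor of the brown lineage, had 3.51 in aliskiren mouse 3 and 5.86 in losartan mouse 3, so it was raised in losartan mouse 3 alone. Zic1 and Lhx8, markers of the classical brown depots, differed from their medians by at most 0.19 in both arrays, and so did Dio2, the deiodinase gene of activated brown fat. Their medians of 2.73, 2.99 and 3.78 are low on the scale, where flat values say little about whether a transcript was present. Ppargc1a, the coactivator of thermogenic genes, had 10.37 and 10.39 against a median of 10.44, a high value in every array.

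The white-type list of 9 further genes had 0 members past the mark in aliskiren mouse 3 and 3 in losartan mouse 3. Slc7a10, an amino acid transporter of white adipocytes, had 4.57 in aliskiren mouse 3 and 6.14 in losartan mouse 3, and Hoxc8 had 6.71 and 7.58. Of 5 beige-type genes, Slc27a1 alone passed the mark in losartan mouse 3, at 8.97, while Tmem26 was lower there, at 7.0 against a median of 8.16. The receptors of the fat hormones did not pass it in either array: Adipor2 had 10.14 and 10.73, the leptin receptor gene Lepr 4.83 and 4.48, and Cdh13, which binds adiponectin, 5.98 and 6.77.

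Paralogs of the members were read to see whether related genes moved too. Retnla, a relative of resistin made by fat and macrophages, had 8.71 in aliskiren mouse 3 and 10.24 in losartan mouse 3, and Fabp5 had 10.30 and 11.92. Ucp3 had 5.92 and 6.24 against a median of 5.87, and Cideb, the family member of liver and kidney, had 11.67 and 11.02 against a median of 11.70. Fabp1 had 4.19 and 6.12 against a median of 4.07. Of the 15 measured paralogs, 1 was more than 2-fold above its median in aliskiren mouse 3 and 3 in losartan mouse 3. The list median was 0.00 in aliskiren mouse 3 and 0.02 in losartan mouse 3.

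In aliskiren mouse 3 the excess was small in extent. There 44 of 18193 genes, 0.242%, were more than 2-fold above the median. Of these 44, 20, or 45.5%, were among the 92 measured genes of the fat and paralog lists, and 8 were the members. In aliskiren mouse 2, 18 genes, 0.0989% of all, passed the mark, and 5 of them, Adipoq, Car3, Cidea, Cox8b and Ucp1, were on these lists. In losartan mouse 3, 839 genes, 4.61% of all, passed it. Among them were 44 of the 92 listed genes, which made up 5.24% of the 839. The lists include the 10 members, which were chosen on these values, so nothing is read from these counts. The genes of rank 1 to 3 by excess in aliskiren mouse 3 were Adipoq, Ucp1 and Cidea, and in losartan mouse 3 Adipoq ranked 1, Cidea 2 and Ucp1 5. Sptssb, a small subunit of serine palmitoyltransferase, lay outside the lists and was chosen after its values were seen. It ranked 2 in aliskiren mouse 2 at 6.81 and 7 in aliskiren mouse 3 at 6.68, against a median of 3.60. Its excess over that median was larger in losartan mouse 3, at 6.32, than in aliskiren mouse 2 (3.22) or aliskiren mouse 3 (3.08).

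Likeness of genes outside the members was measured as Pearson's r with the mean of each class over 10 arrays, and as a description it carries no p, because 2 arrays dominate it. For the general class the highest were Fasn (r = 0.994), Slc36a2 (0.988), Thrsp (0.986), Rbp4 (0.984) and Cox8b (0.982). Without losartan mouse 3 and aliskiren mouse 3 these were 0.953 for Fasn, 0.785 for Slc36a2, 0.709 for Thrsp, 0.775 for Rbp4 and 0.888 for Cox8b over 8 arrays. For the brown-type class they were Cox8b (0.990), Rbp4 (0.975), Prkar2b (0.972), Thrsp (0.962) and Slc36a2 (0.961). Without those arrays they had 0.939, 0.770, 0.823, 0.870 and 0.847 in the same order. For the white-type class they were Ppp1r3b (0.997), A530053G22Rik (0.993), Amy1 (0.993), Acly (0.992) and Plin4 (0.991). Without those arrays the white-type values fell to 0.413 for Ppp1r3b, -0.0956 for A530053G22Rik, 0.517 for Amy1, 0.429 for Acly and 0.661 for Plin4, so the likeness to the white-type genes rested largely on them. Aliskiren mouse 2 stayed among the 8 arrays, with the highest mean of these for the general (1.12) and brown-type (1.56) classes. The reduced r of those classes can therefore rest largely on that array.

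Markers of the kidney itself were high in every array, with list medians between 12.42 and 12.89 over 10 measured genes. The list was slightly lower in losartan mouse 3, with a median difference of -0.32. Slc5a12, Slc12a3 and Slc5a2 went the other way there, 0.38, 0.30 and 0.046 above their medians. Kap, the androgen-regulated kidney protein, had 15.02 in aliskiren mouse 3 and 14.69 in losartan mouse 3, and the phosphate transporter gene Slc34a1 had 13.28 and 12.65. Lists for adrenal cortex, adrenal medulla, skeletal muscle, lymphoid tissue and pancreas had median differences within 0.23 in aliskiren mice 1, 2 and 3 and in losartan mouse 3. In losartan mouse 3 the liver list was at -0.39 and the blood list at -0.54, while in aliskiren mouse 3 they were at 0.07 and -0.0038. Of the genes of these 7 lists, 6 differed more than 2-fold from their median in losartan mouse 3 and 0 in aliskiren mouse 3. Among them Mc2r, the corticotropin receptor that mouse adipocytes also express, had 3.85 in aliskiren mouse 3 and 6.06 in losartan mouse 3. The muscle gene Myl1 had 4.27 in aliskiren mouse 3 and 5.19 in losartan mouse 3, against a median of 3.69. The fibrinogen gene Fgb had 4.48 in aliskiren mouse 3 and 8.22 in losartan mouse 3, against a median of 5.29. Pvalb, Slc18a1 and the albumin gene Alb were lower in losartan mouse 3, by more than 2-fold. The adrenal steroid enzyme genes Cyp11a1 and Cyp11b1 were at 3.90 and 3.27 in losartan mouse 3, against medians of 4.08 and 3.77.

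Genes of other lists also passed the mark in losartan mouse 3. Of 6 urothelial markers, 0 were more than 2-fold above their median in aliskiren mouse 3 and 2, Upk3a and Psca, in losartan mouse 3, with list medians of 0.16 and 0.33. Of 5 mesothelial markers the counts were 0 and 2, Upk1b and Upk3b, with list medians of 0.18 and 0.82. Upk3a had 5.55 in aliskiren mouse 3 and 8.29 in losartan mouse 3, while the mesothelial gene Msln had 4.13 and 3.96. Of 10 macrophage genes, 0 were more than 2-fold above the median in aliskiren mouse 3 and 9 in losartan mouse 3, and summed log2 values over the list ran from 69.36 to 82.96 in aliskiren mice and from 61.50 to 90.95 in losartan mice. The tubular injury gene Havcr1 had 6.08 in aliskiren mouse 3 and 10.76 in losartan mouse 3, and Lcn2 had 7.27 and 10.19. Aliskiren mouse 1 had Havcr1 at 9.37 and 8 of 10 macrophage genes past the mark, with Adipoq at 3.17, the lowest of all arrays. Endothelial genes had list median differences of -0.19 in aliskiren mouse 3 and 0.40 in losartan mouse 3. The part of macrophage and endothelial cells in the Fabp4 values was not tested.

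**Figure D4:**
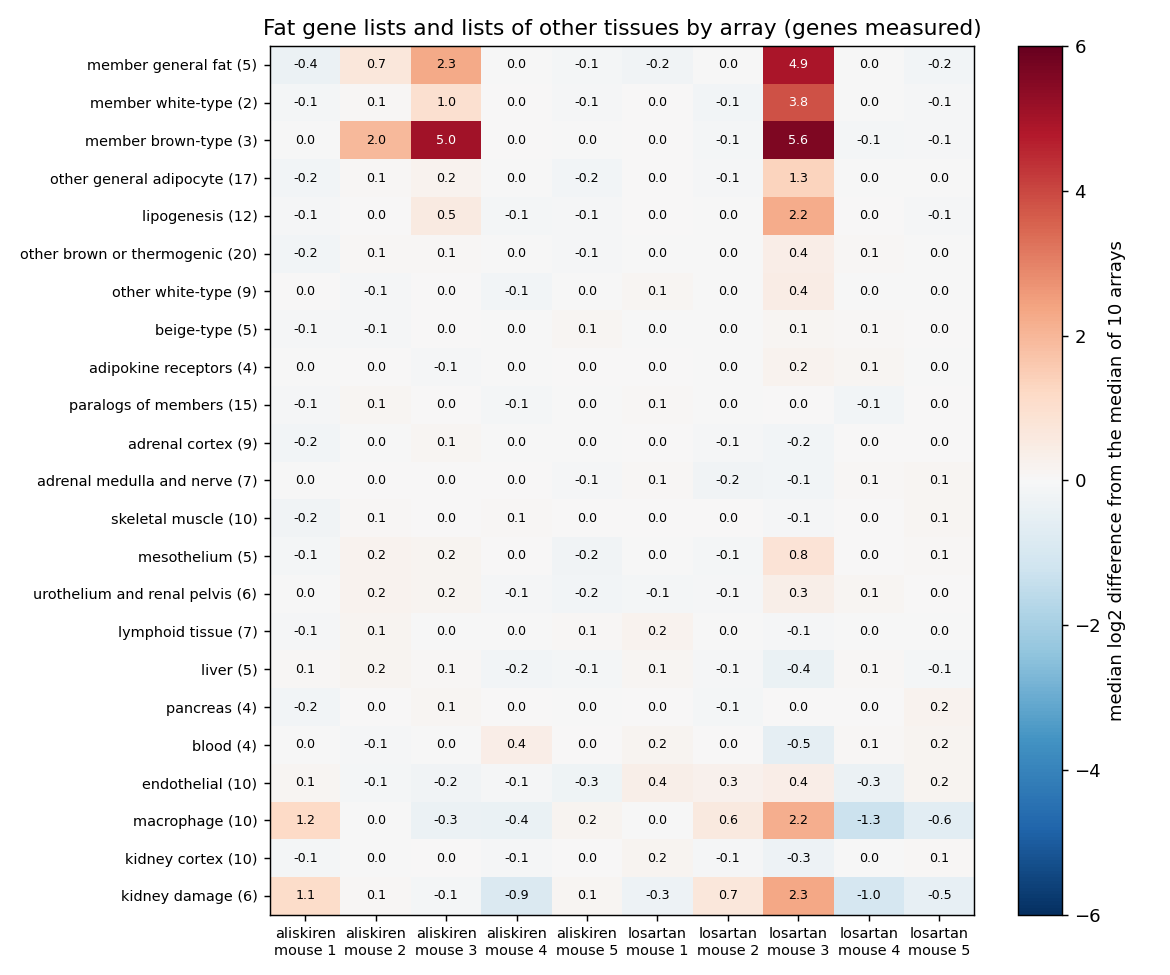
Median log2 difference from the median of 10 arrays (colour and printed value) for each gene list (rows, with the number of genes measured) in each mouse (columns). Beside the members, the lipogenic list is at 0.52 in aliskiren mouse 3 and 2.22 in losartan mouse 3, and the other white-type list at 0.02 and 0.43. The macrophage list is at 1.17 in aliskiren mouse 1, 2.18 in losartan mouse 3 and 0.60 in losartan mouse 2, and the kidney damage list at 1.1, 2.32 and 0.67.

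Between the drugs the fat genes showed no difference past the threshold, which in this design is the one comparison across groups. Aliskiren was compared with losartan for all 18193 genes with limma, two-sided, with Benjamini-Hochberg adjustment over all genes. Of the 10 fat genes, 0 were higher and 0 lower at an adjusted p of 0.05, where 0% of all genes were called in either direction. At an unadjusted p of 0.05 the fat genes gave 0 and all genes 760, or 4.18%, and an ordinary t statistic gave 816 over all genes. The groups overlapped for all 10 fat genes, and 0.748% of all genes had groups that did not overlap.

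Adipoq had 5.59 ± 2.93 with aliskiren and 5.44 ± 4.21 with losartan (SD, n = 5 each), a difference of 0.15 (SE 1.97) at a limma adjusted p of 0.998. The 95% interval of that difference ran from -4.19 to 4.49. Ucp1 had 5.16 ± 2.24 with aliskiren and 4.79 ± 2.53 with losartan, a difference of 0.37 (SE 1.30), and Cidea had 5.60 ± 2.47 and 5.71 ± 3.43, a difference of -0.11 (SE 1.62). For Elovl3 the difference was 0.42 (SE 0.50). The narrowest interval was that of Lep, from -1.58 to 0.37, around a difference of -0.60 (SE 0.44) between 3.25 ± 0.13 with aliskiren and 3.85 ± 1.13 with losartan. For Retn the difference was -0.48 (SE 0.95), for Cidec -0.60 (SE 1.02), for Car3 -0.54 (SE 1.18), for Pparg -0.44 (SE 0.52) and for Fabp4 -0.09 (SE 0.82). Over the 10 genes limma adjusted p lay between 0.986 and 0.998.

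The sign of 9 of the 10 differences turned when 1 mouse was left out, and that of Lep did not. Without losartan mouse 3 the difference was 2.03 for Adipoq, 1.5 for Ucp1, 1.42 for Cidea, 0.72 for Fabp4, 0.55 for Retn, 0.50 for Cidec, 0.49 for Car3 and 0.13 for Pparg, and for Lep it was -0.10. Without aliskiren mouse 3 all 10 were negative, with -0.93 for Adipoq, -0.56 for Ucp1 and -0.10 for Elovl3. The sign of Adipoq turned in 6 of the 10 fits, without aliskiren mouse 2 or 3 or losartan mouse 1, 2, 4 or 5. That of Cidea turned in 4, without aliskiren mouse 1, 4 or 5 or losartan mouse 3, that of Fabp4 in 3, without aliskiren mouse 1 or 5 or losartan mouse 3, and that of Car3 in 2, without aliskiren mouse 4 or losartan mouse 3. Pparg, Cidec and Retn turned without losartan mouse 3 alone, and Ucp1 and Elovl3 without aliskiren mouse 3 alone. With losartan mouse 3, aliskiren mouse 3 and aliskiren mouse 2 all left out, the differences lay between -0.75 for Car3 and 0.21 for Elovl3, with 0.0074 for Adipoq and 0.086 for Ucp1. In these fits 0 of 18193 genes passed the threshold.

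Of the general adipocyte, lipogenic and brown or thermogenic lists, 0 genes passed limma's threshold. At an unadjusted limma p under 0.05 they gave 2 of 17, 0 of 12 and 1 of 20, where 4.18% of all genes were. Nothing is read from such small counts. The median difference was -0.27 for 17 general adipocyte genes, with 16 lower, -0.31 for 12 lipogenic genes, with 9 lower, and -0.10 for 20 brown or thermogenic genes, with 14 lower. Over all genes the median was -0.0080, and 53.0% were lower. These list counts rested on losartan mouse 3. Without it, a choice made after seeing the data, 7 of 17 general adipocyte genes were lower, with a median of 0.15, 3 of 12 lipogenic genes, with a median of 0.086, and 10 of 20 brown or thermogenic genes, with a median of 0.0067, while 53.1% of all genes were lower. The macrophage list differed by a median of 0.04 and the kidney cortex list by 0.01.

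**Figure D5:**
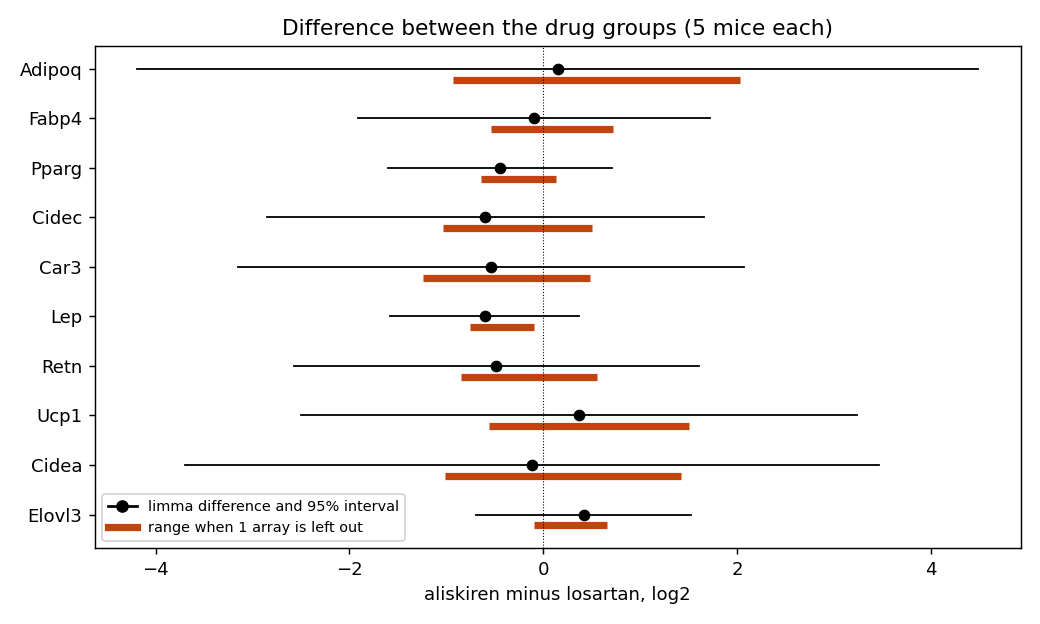
Aliskiren minus losartan on the log2 scale (x axis) for each fat gene (rows), as limma's difference with its 95% interval (black) and as the range of the difference when 1 of the 10 arrays is left out (thick bar). Every interval includes 0, and the thick bar spans 0 for all genes but Lep.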

How the data were processed

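Gene expression was measured in renal cortex of 10 mice with Affymetrix arrays, 1 per mouse. The authors deposited log2 expression values, and the submitters' processing notes name RMA and, as software, Affymetrix Expression Console 1.1; RMA brings the arrays to a common distribution. The table held 45101 probe sets; 64 control probe sets were left out, and 34945 with 1 symbol in the platform annotation gave 18193 genes, of which 34741 probe sets were found by gene identifier in a RefSeq table. Each gene was read from its probe set of highest mean. Array medians lay between 5.52 and 5.56. Arrays have no sequencing depth, and 5 per group limits the precision.

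The members and lists were chosen with earlier results of these data known. Every member is named, as are genes of the fixed lists and the 5 genes of highest likeness per class; the gene of smallest p in each direction was Gcnt2 (0.46) and Scg5 (-0.79), both with a limma adjusted p of 0.986. Aliskiren minus losartan was fitted with limma 3.58.1 in R 4.3.3, which was tested on simulated data. The labels do not say that same-numbered mice were paired. Figures were drawn with matplotlib 3.10.9. Some listed genes were not analysed here.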

Additional observations from a re-analysis of the deposited data

Results flagged for a closer look

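The gap between the highest or lowest mouse and the next was set against the range of its group of 5 mice, for each fat gene. In 12 of 20 groups the ratio was above 0.71. The genes were chosen for values of this kind, so the ratio describes the size of the gap and is no test. Aliskiren mouse 3 stood apart for Cidec at 5.87, next to 3.87, for Retn at 7.82, next to 6.28, and for Elovl3 at 6.69, next to 4.32. Losartan mouse 3 stood apart for the other 9: Adipoq at 12.96, Fabp4 at 13.79, Pparg at 8.64, Cidec at 9.12, Car3 at 14.62, Lep at 5.87, Retn at 10.98, Ucp1 at 9.31 and Cidea at 11.84. The nearest losartan mouse lay at 3.82 for Adipoq, 10.15 for Fabp4, 10.35 for Car3 and 3.73 for Ucp1. For Elovl3, losartan mouse 3 at 5.16 had a gap ratio below that value. The measure covers only the highest and lowest mouse of a group. It therefore covered aliskiren mouse 2 for Elovl3 alone, where that mouse was lowest at 3.90, next to 4.08. For Adipoq, Ucp1 and Cidea, aliskiren mouse 2 lay between aliskiren mouse 3 and the other 3 aliskiren mice. Its value there also narrowed the gap of aliskiren mouse 3. That neither mouse was named for these genes says nothing about how far it stood apart.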

How the results depend on the processing

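No gene passed the threshold under any of the 22 alternatives to the fit, so the count of called genes was 0 in each, and limma's lowest adjusted p among the fat genes over these fits was 0.787. Alternatives covered the level filter (Adipoq, Cidec, Lep, Ucp1 and Elovl3 lie below it and gave no value), the probe set, the scaling, how variances and arrays were weighted, a block for the mouse number, a looser threshold and which arrays entered. Signs turned with array weights for Fabp4 (0.69), Pparg (0.045), Cidec (0.43), Car3 (0.55), Retn (0.43) and Cidea (1.44). Without losartan mouse 3 and aliskiren mouse 1 the differences were 0.91 for Fabp4, 0.12 for Pparg, 0.69 for Cidec, 0.74 for Car3, 0.70 for Retn and 1.88 for Cidea. Without losartan mouse 3, aliskiren mouse 3 and aliskiren mouse 2, a set chosen after seeing the data, Fabp4 (0.063) and Retn (0.089) turned. Leaving out 1 array at a time gave -0.93 to 2.03 for Adipoq, -0.54 to 0.72 for Fabp4, -0.64 to 0.13 for Pparg, -1.04 to 0.50 for Cidec, -1.24 to 0.49 for Car3, -0.75 to -0.10 for Lep, -0.85 to 0.55 for Retn, -0.56 to 1.5 for Ucp1, -1.02 to 1.42 for Cidea and -0.10 to 0.66 for Elovl3. Centred on the mean of the 10 arrays, the white-type mean of aliskiren mouse 2 turned to -0.37. The other 83 array values moved by less than the SD of their group. That SD includes the high arrays themselves, so it is a wide margin and says little about stability. Brown-type minus general kept its sign, at 1.13 to 1.56 in aliskiren mouse 3 and -0.71 to -0.22 in losartan mouse 3. With the mouse number as a replicate block, 0 genes passed and the difference of Adipoq was 0.15. Deviations of same-numbered mice correlated at -0.18 to 0.38 across genes. Mice of different numbers were not correlated for comparison, so these values do not decide whether the mice were paired. The number was used as a name because the labels state no pairing. RMA values near the bottom of the scale, as for Lep in 9 arrays, limit what can be seen of low transcripts.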
